A study of Mus musculus with 20 samples.

Results

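Pregranulosa cells are the supporting cells of the fetal ovary, and 10 genes tied to their identity were followed in ovaries that lacked Figla or Lhx8. The genes were Foxl2, Wnt4, Rspo1, Lgr5, Irx3, Irx5, Runx1, Nr5a2, Gata4 and Fshr, looked up by mouse symbol, and each matched 1 of the 49585 gene identifiers in the count tables. The RNA came from ovaries of B6D2F1 mice. The groups were Figla knockout and control ovaries at embryonic day 18.5 (E18.5), the same pair at the day of birth (P0), and ovaries with and without Lhx8 at P0. The genotype field uses Figla-/- and Lhx8-/- for knockouts and Figla+/- and Lhx8+/- for controls, while the library names call the Lhx8 controls wild type. For part of the libraries that field conflicts with the library name, which sets the groups here. The labels name no transgene or Cre line, do not give the deleted part of either gene, and do not say whether samples were separate animals or pools, so the p-values below reflect only how far these samples vary, in part perhaps for technical reasons. The study set out to find genes that differ between knockout and control ovaries.

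Figla and Lhx8 encode transcription factors of oocytes, and pregranulosa cells are the cells beside them. Pregranulosa cells surround oocytes to form primordial follicles around birth, and their fate depends on the transcription factor FOXL2 and on WNT4 and R-spondin 1 signalling through beta-catenin. In whole-ovary RNA, fewer cells of a type and less RNA per cell cannot be told apart.

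The Figla set held 14 libraries of 5583392 to 13408022 counts, and the Lhx8 set 6 libraries of 8297204 to 9978350. At E18.5, replicates 1 and 2 of each group were near-identical (chi-square per degree of freedom 1.32 in knockouts and 1.12 in controls, against 6.62 to 62.3 for the 22 other pairs) and were summed, which left 3 samples per group. Titles, and with them the source and genotype fields, conflicted with the library names for 6 of 14 Figla and 6 of 6 Lhx8 libraries. Groups follow the library names. Figla stood at 0.183, 0.639 and 0.301 CPM, a gene's counts relative to its library's TMM-scaled total, in P0 Figla knockouts and at 32.9, 37.3 and 43.2 in their controls, and at 0.846, 1.22 and 1.50 in E18.5 knockouts and 22.0, 3.65 and 25.8 in their controls. Lhx8 stood at 16.7, 30.3 and 23.5 CPM in Lhx8 knockouts and at 94.8, 102 and 90.9 in their controls. These 3' end libraries may not read the deleted part, so that level may not check the label, and grouping by title would turn the sign of every Lhx8 result. E18.5 control sample 3 stood apart from its group, with a summed level of 14 oocyte markers of 336 CPM, against 319 to 394 in the E18.5 knockouts and 1154 and 1389 in the other 2 controls. Lhx8 stood at 5.98 CPM in it, against 6.39 in knockout 3 and 94.7 and 115 in the other controls, so its label is in doubt; its title and that of control 4 call them knockouts.

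RefSeq start regions on GRCm38.p6, which run from 250 bases before to 50 after a gene's start, were at hand for 7 of the 10 genes. Shown here are both starts of Nr5a2, the gene that passed the test after Figla loss, and the start of Foxl2, which faces the antisense RNA Foxl2os described below. Of 5 motifs searched on both strands of the 9 start regions of these genes, capitals mark GATAA or its reverse complement TTATC, the core letters read by GATA factors such as GATA4. The first Nr5a2 start lies at chr1:136960399-136960698 and the second at chr1:136953581-136953880, both on the minus strand, and the Foxl2 start at chr9:98955357-98955656 on the plus strand.
Nr5a2 first start: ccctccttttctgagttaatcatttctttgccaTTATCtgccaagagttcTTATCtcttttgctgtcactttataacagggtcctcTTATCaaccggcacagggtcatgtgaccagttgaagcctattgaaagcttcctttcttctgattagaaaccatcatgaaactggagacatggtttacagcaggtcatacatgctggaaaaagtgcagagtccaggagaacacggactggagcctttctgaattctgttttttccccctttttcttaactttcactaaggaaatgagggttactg
Nr5a2 second start: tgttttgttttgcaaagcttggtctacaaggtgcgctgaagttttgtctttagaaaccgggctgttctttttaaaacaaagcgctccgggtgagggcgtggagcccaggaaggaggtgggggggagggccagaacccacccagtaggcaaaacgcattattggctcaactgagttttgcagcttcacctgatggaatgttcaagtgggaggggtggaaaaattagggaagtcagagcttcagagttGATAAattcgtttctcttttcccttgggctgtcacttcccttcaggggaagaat
Foxl2: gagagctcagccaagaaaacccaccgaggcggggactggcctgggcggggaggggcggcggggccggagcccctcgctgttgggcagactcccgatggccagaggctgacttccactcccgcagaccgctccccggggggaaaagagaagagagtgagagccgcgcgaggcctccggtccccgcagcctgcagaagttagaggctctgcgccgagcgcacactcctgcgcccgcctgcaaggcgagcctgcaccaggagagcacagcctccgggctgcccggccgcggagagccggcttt
The first Nr5a2 start held 3 such matches, the second 1 and the Foxl2 start 0, while the Fshr start held 2 and those of Wnt4, Rspo1, Irx3 and both of Runx1 held 0. Of all 32851 start regions, 25.4% held at least 1. Of the other motifs, AAGGTCA (NR5A, in 4.72% of all) and CTTTGAA (TCF/LEF, 5.14%) had no match in the 9 regions, and TGTGGT (RUNX, 16.8%) had 2, both in the first Runx1 start. The E-box CANNTG (72.3%) matched 2 and 3 times in the first and second Nr5a2 starts, 3 times each in the Fshr and first Runx1 starts, and once in the Wnt4 start. A match is a description of the letters and not a binding site.

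Before the knockouts are compared, the levels of the genes among themselves describe these ovaries. In the Figla libraries, which read whole transcripts, mean CPM per kilobase of exon over the 12 samples was 119 for Gata4, 95.3 for Foxl2, 62.6 for Rspo1, 50.8 for Irx3, 36.8 for Wnt4, 18.6 for Lgr5, 12.6 for Runx1, 8.73 for Irx5 and 4.10 for Nr5a2. Each gene's range over samples overlapped that of its neighbour in this order. Gata4, which ran from 85.5 to 175 CPM per kilobase, lay above Rspo1, at 46.8 to 83.8, in every sample. Fshr, the receptor for follicle-stimulating hormone that marks later granulosa cells, was near absent, with 26 counts over 14 Figla libraries (0 to 5 in each). That is 0.193 CPM, with an exact 95% interval of 0.126 to 0.283 that covers counting error only. It had 0 counts in all 6 Lhx8 libraries, which read the 3' end of transcripts. There the counted Fshr exons stop 218 bases before both the RefSeq and the GENCODE M21 end, so a count of 0 carries no statement about Fshr expression in Lhx8 ovaries. Fshr was tested in no comparison.

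Foxl2 could be followed in the Figla set only. It is the transcription factor that keeps granulosa cells from taking a Sertoli-like fate in mice (ENSMUSG00000050397, GRCm38 chr9:98955607-98956847, plus strand). At P0 it stood at 149, 123 and 138 CPM in Figla knockouts and at 130.3, 153 and 122 CPM in controls. The groups overlapped, and edgeR gave a 1.03-fold level in knockouts with a 95% interval of 0.856 to 1.24 (log2 fold change 0.04, SE 0.12, adjusted p = 0.855). At E18.5 the values were 80.7, 86.3 and 123 CPM in knockouts and 67.8, 86.2 and 159 CPM in controls. The means were 96.8 ± 23.2 CPM in knockouts and 104 ± 48.2 CPM in controls (SD, n = 3 each), and the interval of the fold, 0.547 to 1.58, was wide (log2 fold change -0.11, SE 0.33, adjusted p = 0.9999).

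**Figure D1:**
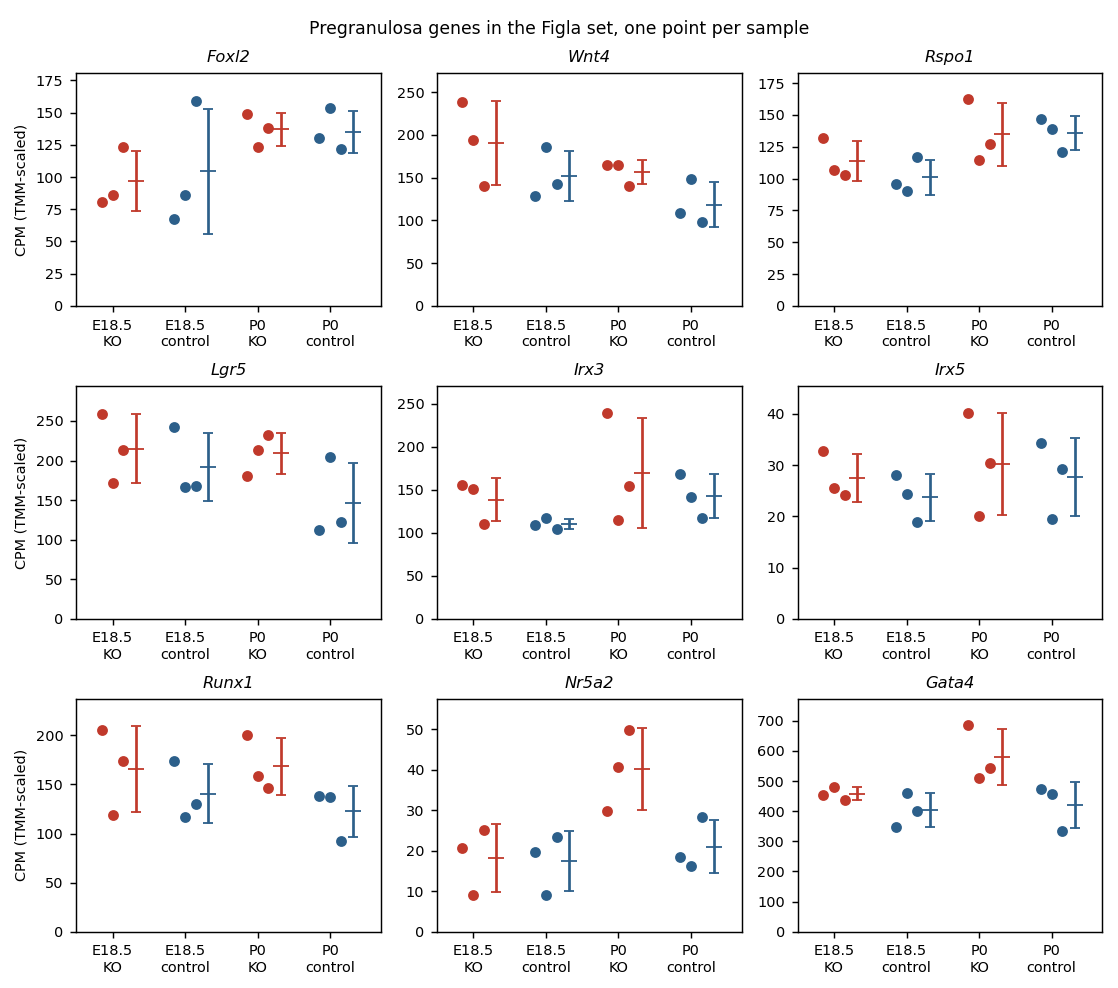
CPM of 9 pregranulosa genes in the Figla set, by group, with 1 point per sample and the mean and SD beside each group of 3 samples (red, knockout; blue, control). Nr5a2 at P0 is the only panel whose difference passed the test: 29.7 to 49.9 CPM in knockouts and 16.1 to 28.3 CPM in controls.

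Among the Lhx8 libraries, Foxl2 had 0, 2 and 7 counts in the knockout libraries and 1, 1 and 0 in the control libraries, at most 0.86 CPM. The Lhx8 libraries were made with a kit that reads the 3' end of transcripts. The Foxl2 exon that was counted ends 1279 bases before the RefSeq 3' end and 1696 bases before that of the later GENCODE M21. For the 8 members tested there, the counted model ran to the M21 end exactly. Against RefSeq, the same ends lay between 225 bases past and 14 bases short for all but Irx5, whose counted model runs 14830 bases past the RefSeq end. Reads past the counted exon were not analysed here, so the near-zero Foxl2 counts carry no statement about Foxl2 expression in Lhx8 ovaries.

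**Figure D2:**
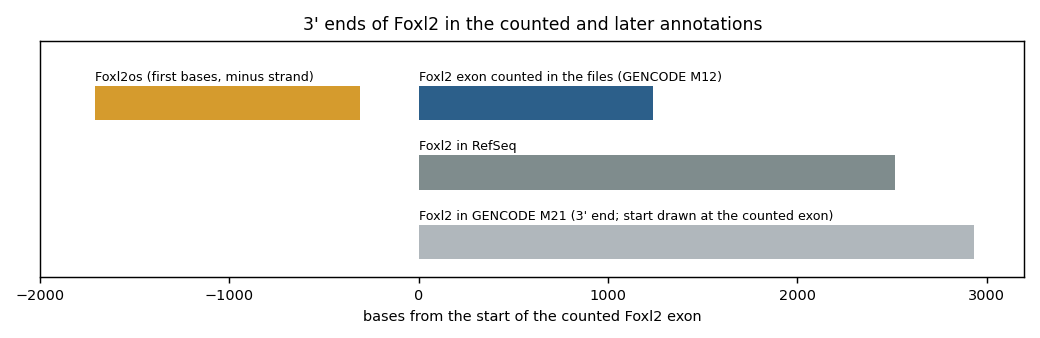
The counted Foxl2 exon and the 3' ends of Foxl2 in RefSeq and GENCODE M21, in bases from the start of the counted exon, with the near end of Foxl2os. The counted exon is 1241 bases long and stops 1279 bases short of the RefSeq end and 1696 short of the M21 end.

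A neighbour of Foxl2 was counted in both sets and was picked after its values were seen. Foxl2os (ENSMUSG00000097072, chr9:98949781-98955299) is transcribed from the opposite strand, with 307 bases between it and Foxl2. In the Lhx8 set it stood at 3.66, 3.46 and 4.18 CPM in knockouts and at 6.12, 6.53 and 7.80 CPM in controls. All 3 knockouts lay below all 3 controls, but the difference missed the threshold (log2 fold change -0.84, SE 0.28, edgeR adjusted p = 0.0832). In the Figla set the groups overlapped at both ages, with log2 fold changes of -0.04 at P0 and -0.20 at E18.5. Whether the antisense RNA was lower in 1 knockout and not in the other was not tested, since the kits differ.

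The remaining transcription factors gave the 1 call in each P0 comparison. Nr5a2 (ENSMUSG00000026398, chr1:136842571-136960448) encodes the nuclear receptor LRH-1, which granulosa cells need for ovulation in mice. At P0 it stood at 29.7, 40.7 and 49.9 CPM in Figla knockouts and at 18.4, 16.1 and 28.3 CPM in controls. Every knockout lay above every control, although the lowest knockout and the highest control were close. Nr5a2 rose 1.95-fold (95% interval 1.37 to 2.75, log2 fold change 0.96, SE 0.23, edgeR adjusted p = 0.0168). Without control 1, control 2, knockout 2 or knockout 3 the adjusted p was 0.0523, 0.0524, 0.0578 or 0.0903, and in 1 model of all Figla samples it was 0.147.

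Nr5a2 in the Lhx8 set stood at 30.2, 60.7 and 52.2 CPM in knockouts and at 26.0, 32.5 and 25.3 CPM in controls. Knockout 1 lay among the controls while the other 2 knockouts lay above all of them. The log2 fold change was 0.79 (SE 0.24, edgeR adjusted p = 0.0634), short of the threshold, and without knockout 1 the adjusted p was 0.00386. Of the 10 alternative runs described below, Nr5a2 passed in 3 after Lhx8 loss, and the highest adjusted p (edgeR or DESeq2) was 0.196. At E18.5 the values were 20.6, 8.98 and 25.0 CPM in Figla knockouts and 19.7, 9.13 and 23.5 CPM in controls. The samples numbered 3 were the low ones in both groups, and the log2 fold change was 0.06 (SE 0.42, adjusted p = 0.9999).

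Irx5 and Irx3 are neighbouring Iroquois genes that pregranulosa cells use in mice as follicles form. Irx5 (ENSMUSG00000031737, chr8:92357625-92376286) stood at 34.6, 29.9 and 28.7 CPM in Lhx8 knockouts and at 17.3, 22.9 and 19.1 CPM in controls. All 3 knockouts lay above all 3 controls, and Irx5 rose 1.59-fold (95% interval 1.22 to 2.08, log2 fold change 0.67, SE 0.17, edgeR adjusted p = 0.0359). The adjusted p was 0.148, 0.0605 and 0.114 without control 1, 2 or 3, and 0.0688 and 0.0627 without knockout 1 or 2. In the Figla set at P0 Irx5 stood at 40.2, 20.1 and 30.4 CPM in knockouts and at 34.4, 19.5 and 29.2 CPM in controls, which overlapped almost wholly. The interval of the fold there was 0.747 to 1.64.

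Irx3 (ENSMUSG00000031734, chr8:91798525-91802067) passed no test. At P0 it stood at 239, 114.7 and 154 CPM in Figla knockouts and at 169, 142 and 118 CPM in controls. Knockout 1 alone was above the controls, and the log2 fold change was 0.27 (SE 0.23, edgeR adjusted p = 0.487). In the Lhx8 set the values were 551, 494 and 658 CPM in knockouts and 475, 473 and 523 CPM in controls (log2 fold change 0.23, SE 0.14, adjusted p = 0.311). Of its exon bases, 124 (4.49%) also belong to the antisense gene Irx3os, and under the counter's default, reads over both genes are left out.

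Gata4 and Runx1 had knockout values above every control at P0 in the Figla set without passing the test. Gata4 (ENSMUSG00000021944, chr14:63198922-63271692) is a zinc-finger factor of gonadal somatic cells. It stood at 685, 511 and 543 CPM in knockouts and at 473, 456 and 334 CPM in controls (log2 fold change 0.48, SE 0.16, edgeR adjusted p = 0.0661, and 0.0456 without control 1). Runx1 (ENSMUSG00000022952, chr16:92601466-92826149) works beside FOXL2 in fetal granulosa cells of mice. It stood at 201, 158 and 146 CPM in knockouts and at 139, 137 and 92.7 CPM in controls (log2 fold change 0.48, SE 0.18, edgeR adjusted p = 0.0931). DESeq2 on the same counts called both, with adjusted p = 0.0165 for Gata4 and 0.0375 for Runx1. Of 11 alternative runs after Figla loss at P0, Gata4 passed in 3 and Runx1 in 2. Their highest adjusted p (edgeR or DESeq2) was 0.266 and 0.403. After Lhx8 loss both overlapped: Gata4 stood at 119, 173 and 178 CPM in knockouts and at 133, 133 and 143 CPM in controls, and Runx1 at 70.3, 83.6 and 114 CPM in knockouts and at 77.2, 75.9 and 89.2 CPM in controls.

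At P0, Rspo1 differed least of the signalling genes. Rspo1 (ENSMUSG00000028871, chr4:124986430-125009099) encodes the secreted protein that raises Wnt signalling during ovary determination. It stood at 162, 114.7 and 127 CPM in Figla knockouts and at 147, 139 and 121 CPM in controls, a 1.01-fold level with a 95% interval of 0.812 to 1.25. For Lhx8 the values were 175, 167 and 183 CPM in knockouts and 173, 164 and 186 CPM in controls, a 1.02-fold level with an interval of 0.842 to 1.23. These were the narrowest intervals among the 3 signalling genes. Adjusted p was 0.964 after Figla loss and 0.922 after Lhx8 loss.

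Wnt4 (ENSMUSG00000036856, chr4:137277489-137299726) encodes the ligand that acts with R-spondin 1 to direct the ovarian fate. At P0 it stood at 165, 164 and 140.4 CPM in Figla knockouts and at 109, 148 and 98.5 CPM in controls. Control 2 lay above the lowest knockout, and the log2 fold change was 0.43 (SE 0.15, edgeR adjusted p = 0.0837). Without control 2 the adjusted p was 0.0102, and DESeq2 with every sample gave 0.0428. Wnt4 passed in 3 of the 11 alternative runs, and the highest adjusted p (edgeR or DESeq2) was 0.347. With Lhx8 lost, Wnt4 stood at 284, 225 and 230.2 CPM in knockouts and at 247, 228 and 231 CPM in controls, with a fold of 1.06 and an interval of 0.862 to 1.31.

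Lgr5 (ENSMUSG00000020140, chr10:115450311-115587780) encodes a receptor for R-spondins that marks cortical pregranulosa cells and surface epithelium in mice. At P0 it stood at 181, 214 and 233 CPM in Figla knockouts and at 112, 204 and 123 CPM in controls. Control 2 was again the high control, and the log2 fold change was 0.54 (SE 0.20, edgeR adjusted p = 0.0975). Without control 2 it was 0.85 with an adjusted p of 0.00275. Lgr5 passed in 3 of the 11 alternative runs, and the highest adjusted p (edgeR or DESeq2) was 0.280. In the Lhx8 set Lgr5 stood at 141, 63.2 and 106 CPM in knockouts and at 58.3, 61.6 and 70.3 CPM in controls. Knockout 2 lay among the controls, and the log2 fold change was 0.72 (SE 0.25, edgeR adjusted p = 0.0898), with an adjusted p of 0.0110 without that sample. After Lhx8 loss Lgr5 passed in 3 of 10 alternative runs, and the highest adjusted p (edgeR or DESeq2) was 0.247.

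**Figure D3:**
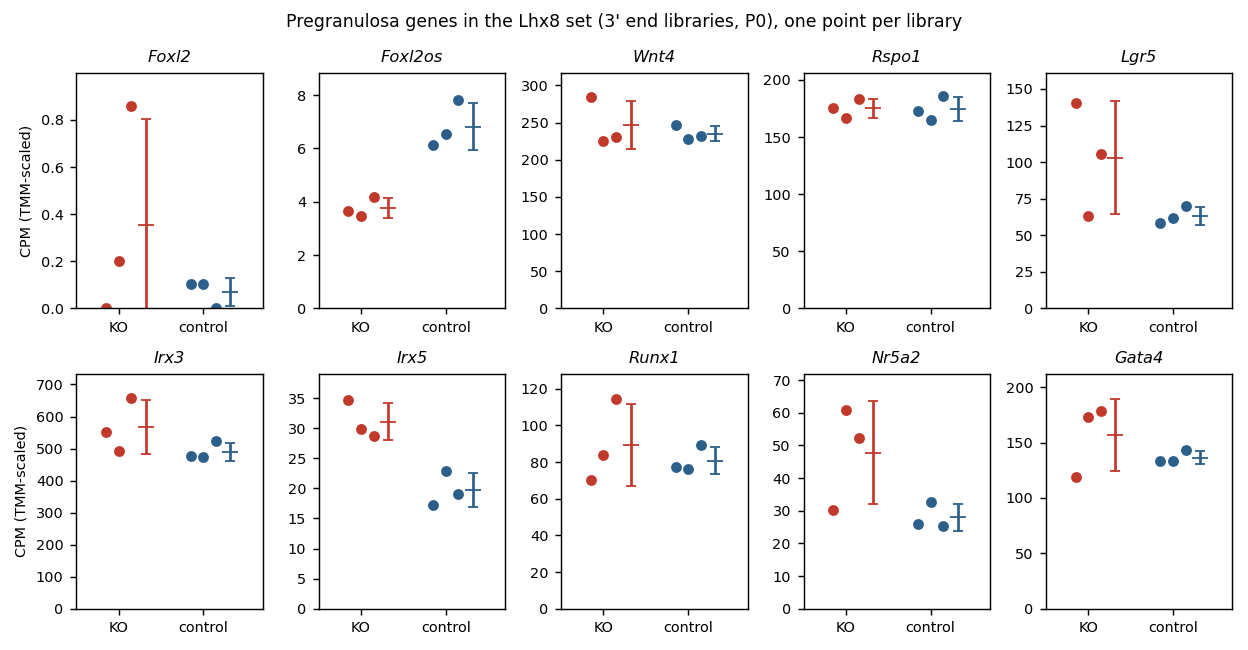
CPM of the Lhx8 set at P0 for Foxl2, Foxl2os and 8 tested pregranulosa genes, with 1 point per library and the mean and SD beside each group of 3 libraries (red, knockout; blue, control). Irx5 separated the groups, at 28.7 to 34.6 CPM in knockouts and 17.3 to 22.9 CPM in controls, while Foxl2 stayed below 1 CPM throughout.

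Counted together, the tested genes leaned upward in both knockouts at P0, and few passed. They were chosen with earlier results of these data known and were read in the same samples. After Figla loss at P0, 1 of 9 was called higher and 0 lower, where 5.12% of all 17321 genes tested were called higher and 10.9% lower. All 9 log2 fold changes were above zero, against 51.8% of all genes, and their median was 0.43 against 0.02 over all genes. For 3 of 9, every knockout lay above every control, against 14.2% of all genes. An unadjusted p under 0.05 was found for 5 of 9, against 30.8% of all genes. DESeq2 called 5 of the 9 higher, namely Nr5a2, Gata4, Runx1, Lgr5 and Wnt4, and 6.74% of the 17308 genes it gave an adjusted p. After Lhx8 loss, 1 of 8 was called higher and 0 lower, where 3.06% of 15274 genes were called higher and 7.29% lower. All 8 were above zero, against 54.1% of all genes, with a median of 0.22 against 0.05 over all genes. Of the 8, 1 had every knockout above every control, against 14.7%, and 3 had an unadjusted p under 0.05, against 27.8%. DESeq2 called 3 higher, namely Irx5, Nr5a2 and Lgr5, and 4.94% of 15268 genes.

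**Figure D4:**
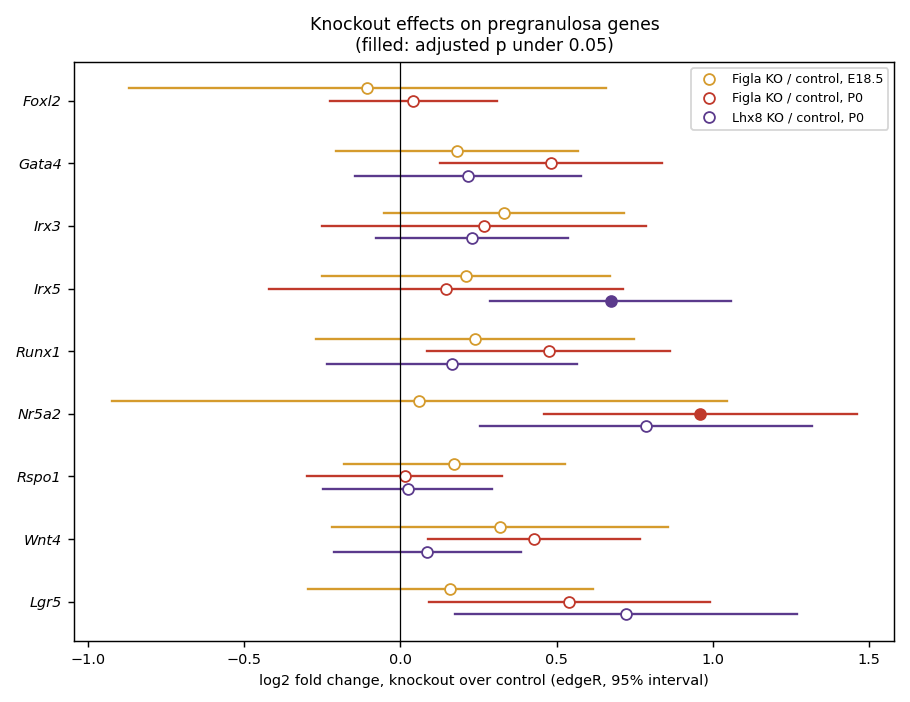
Log2 fold change of knockout over control with its 95% interval for each pregranulosa gene in the Figla set at E18.5 and P0 and the Lhx8 set at P0, filled where the adjusted p was under 0.05. The 2 filled points are Nr5a2 after Figla loss at P0 (0.96) and Irx5 after Lhx8 loss (0.67), and Foxl2 was not tested in the Lhx8 set.

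At E18.5 none of the 9 tested genes passed after Figla loss, by edgeR or DESeq2, and 0 had an unadjusted p under 0.05. The background was as low, since edgeR called 0.0062% of 16131 genes in either direction and 3.76% had an unadjusted p under 0.05. The genes leaned upward here too, with 8 of 9 log2 fold changes above zero, against 52.9% of all genes. Their median was 0.18, against 0.015 over all genes. Wnt4 stood at 238, 194 and 139.7 CPM in knockouts and at 129, 185 and 142 CPM in controls, and Irx3 at 155, 151 and 109.9 CPM in knockouts and at 109, 117 and 105 CPM in controls. Both overlapped. Gata4, Rspo1, Lgr5, Irx5 and Runx1 had log2 fold changes between 0.16 and 0.24, with SEs of 0.15 to 0.22. Without control 3, whose label is in doubt, 0 members were called, and the log2 fold changes were 0.51 for Wnt4, 0.40 for Irx3, -0.21 for Foxl2 and -0.22 for Nr5a2. With both samples numbered 3 left out, an alternative added after the data were seen, no member was called either.

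Between E18.5 and birth no member passed in either genotype. In Figla knockouts, Nr5a2 had the highest log2 fold change of P0 over E18.5, 1.11 (SE 0.38, edgeR adjusted p = 0.267), and all 3 P0 values lay above all 3 E18.5 values, as for 3 of 9 members and 11.5% of all genes. In controls it was 0.19 (SE 0.38, adjusted p = 0.794). The difference between the Figla effects at the 2 ages was 0.92 on the log2 scale (SE 0.53, adjusted p = 0.920), so the P0 effect was not shown to differ from that at E18.5. edgeR called 0.00544% of 18379 genes between the ages in knockouts, 0% in controls and 0% for the difference. At an unadjusted p under 0.05 these were 12.6%, 23.1% and 5.32%, and 1, 1 and 0 members. Of all genes DESeq2 called 309, 1616 and 3.

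The wider Wnt and R-spondin pathway, in lists chosen with earlier results of these data known, moved in both directions. At P0 after Figla loss, 19 of 54 tested genes rose and 4 fell, with a median log2 fold change of 0.36, where 5.12% of all genes rose, 10.9% fell and the median was 0.02. Among the ligands, Rspo2, an R-spondin made by oocytes in mice, fell to 1.19, 2.72 and 0.702 CPM in knockouts, against 24.3, 30.8 and 39.5 CPM in controls (log2 fold change -4.27, SE 0.36, edgeR adjusted p = 2.73e-05). Wnt7a also fell, while Wnt5a, Wnt5b and Rspo4 rose, although Rspo4 had only 53 counts in knockouts and 5 in controls. Among receptors 7 of 19 rose and Fzd5 fell (log2 fold change -0.75). Fzd7 averaged 108 ± 11.7 CPM in knockouts and 62.7 ± 9.89 CPM in controls, and Ror2 45.7 ± 5.68 CPM in knockouts and 25.8 ± 2.94 CPM in controls (SD, n = 3 each).

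Downstream, Lef1, a transcription factor that carries the beta-catenin signal and is itself a target of it, rose in both knockouts. It stood at 109, 96.2 and 98.0 CPM in P0 Figla knockouts and at 25.8, 20.5 and 18.7 CPM in controls (log2 fold change 2.24, SE 0.15, edgeR adjusted p = 5.67e-06). In the Lhx8 set it stood at 55.8, 60.2 and 88.7 CPM in knockouts and at 31.6, 36.2 and 37.5 CPM in controls (log2 fold change 0.98, SE 0.19, adjusted p = 0.00989). The target genes Sp5, Ccnd1, Fst and Apcdd1 rose after Figla loss, 4 of 7 tested. Sp5 stood at 103, 66.7 and 78.8 CPM in knockouts and at 26.8, 20.5 and 15.7 CPM in controls (log2 fold change 1.99, SE 0.22, adjusted p = 0.000177). Axin2, a widely used readout of the pathway, missed the threshold after Figla loss (log2 fold change 0.42, SE 0.14, edgeR adjusted p = 0.0607) and was at 0.04 (SE 0.18, adjusted p = 0.900) after Lhx8 loss.

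Of the inhibitors and remaining transducers after Figla loss, Sfrp1, Notum, Tcf7l2 and Tcf7l1 rose and Dvl3 fell. After Lhx8 loss, 5 of 48 tested pathway genes rose (Rspo3, Fzd8, Fzd2, Lef1 and Sp5) and Rspo2 fell, with a median log2 fold change of 0.39, where 3.06% of all genes rose, 7.29% fell and the median was 0.05. Rspo2 stood at 2.79, 1.73 and 3.44 CPM in Lhx8 knockouts and at 27.3, 31.1 and 21.7 CPM in controls. At E18.5, 0 of 48 tested pathway genes were called.

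Among genes of granulosa differentiation, 3 of 15 tested rose after Figla loss at P0 and 3 of 12 after Lhx8 loss, and 0 fell. Of all genes, 5.12% rose after Figla loss and 3.06% after Lhx8 loss. Log2 fold changes were above zero for 13 of the 15 and 8 of the 12. Kitl and Gja1 were among the genes that rose in both knockouts. Kitl encodes the KIT ligand that granulosa cells present to oocytes, and Gja1 encodes a gap junction protein of granulosa cells. Kitl stood at 668, 835 and 902 CPM in P0 Figla knockouts and at 415, 552 and 443 CPM in controls (log2 fold change 0.79, SE 0.14, edgeR adjusted p = 0.00412). Within the Lhx8 set it stood at 305, 282 and 261 CPM in knockouts and at 157, 159.6 and 149.5 CPM in controls (log2 fold change 0.88, SE 0.12, adjusted p = 0.00175). Gja1 averaged 191 ± 30.0 CPM in P0 Figla knockouts and 137 ± 17.7 CPM in controls (SD, n = 3 each, log2 fold change 0.51, edgeR adjusted p = 0.0329), with groups that overlapped. With Lhx8 lost it stood at 60.1, 38.7 and 35.5 CPM in knockouts and at 23.2, 27.1 and 26.8 CPM in controls (log2 fold change 0.82, edgeR adjusted p = 0.0342), and the groups did not overlap. Among other supporting cell genes, 1 of 12 tested (Lhx9) rose and 1 fell after Figla loss. After Lhx8 loss 2 of 9 rose (Emx2 and Gata6) and 0 fell.

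**Figure D5:**
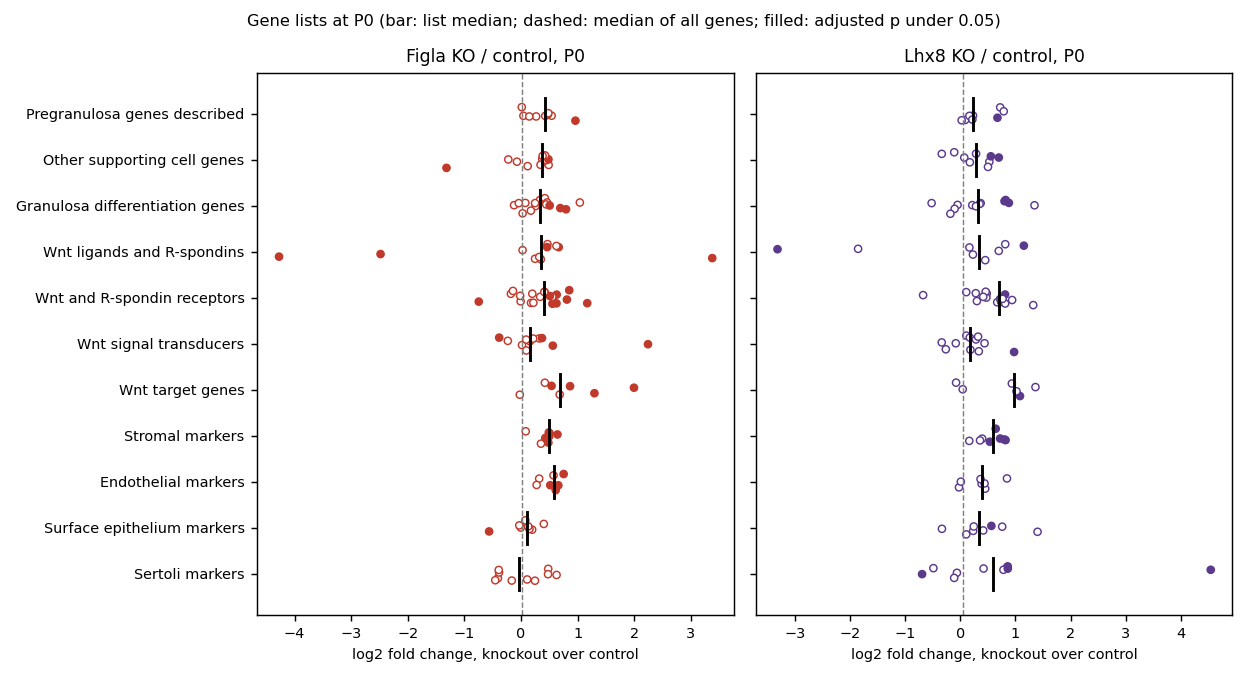
Log2 fold change of knockout over control at P0 for each tested gene of 11 lists (points, filled where the adjusted p was under 0.05; bar, list median; dashed line, median of all genes), with Figla on the left and Lhx8 on the right. The pregranulosa median (0.43 after Figla loss, 0.22 after Lhx8 loss) lay close to or below that of the stromal markers (0.49 and 0.59). It lay above the medians of surface epithelium (0.10) and Sertoli markers (-0.03) after Figla loss and below them after Lhx8 loss (0.33 and 0.60).

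Markers of some other cell types moved in the same libraries. All 13 tested oocyte markers fell after Figla loss at P0, with a summed level of 14 markers of 509 to 617 CPM in knockouts and 1804 to 3245 CPM in controls, while 10 of 13 fell after Lhx8 loss, with 611 to 1151 CPM in knockouts and 1924 to 2153 CPM in controls. Of 8 stromal markers, 6 rose after Figla loss (sum 6581 to 7470 CPM in knockouts and 4692 to 5725 CPM in controls) and 5 after Lhx8 loss (5411 to 6237 CPM in knockouts and 3651 to 4170 CPM in controls). Of 7 endothelial markers, 4 rose after Figla loss, with sums of 457 to 530 CPM in knockouts and 287 to 388 CPM in controls, and 0 after Lhx8 loss. Of all genes, 5.12% rose and 10.9% fell after Figla loss, and 3.06% rose and 7.29% fell after Lhx8 loss. After Figla loss, 0 of 8 surface epithelium markers rose and Bnc1 fell, and 1 of 6 macrophage markers rose. After Lhx8 loss, 1 of 8 surface epithelium and 0 of 5 tested macrophage markers rose. Of 5 tested steroidogenic markers, 0 rose and Hsd3b6 fell in both knockouts. CPM are shares of a library, and the part of these shifts in the pregranulosa values was not tested. The summed level of the 10 pregranulosa genes was 1462 to 1852 CPM in P0 Figla knockouts and 1066 to 1415 CPM in controls. In the Lhx8 set it was 1296 to 1551 CPM in knockouts and 1191 to 1287 CPM in controls. Single uncalled genes weigh heavily in these sums: Gata4 gave 511 to 685 CPM in P0 Figla knockouts and 334 to 473 CPM in controls. Irx3 gave 494 to 658 CPM in Lhx8 knockouts and 473 to 523 CPM in controls. The Lhx8 sums include Foxl2 and Fshr, which could not be read there.

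Sertoli markers, which the ovary keeps low while Foxl2 is active, were read beside Foxl2. After Figla loss at P0, 0 of 10 tested passed, where 5.12% of all genes rose and 10.9% fell. The sum of all 11 listed was 93.7 to 102.4 CPM in knockouts and 78.4 to 102.2 CPM in controls. After Lhx8 loss 4 of 10 rose (Dmrt1, Aard, Sox9 and Fgf9) and Rhox8 fell, where 3.06% of all genes rose and 7.29% fell. There the sum of the 11 overlapped between groups, at 137 to 192 CPM in knockouts and 119 to 140 CPM in controls. Sox9 stood at 35.6, 40.1 and 56.3 CPM in Lhx8 knockouts and at 23.0, 22.2 and 28.7 CPM in controls (log2 fold change 0.85, SE 0.20, edgeR adjusted p = 0.0239). Dmrt1 ranged from 4.23 to 42.6 CPM among the 3 knockouts, against 0.527 to 1.16 CPM in controls, and is also expressed in germ cells. Foxl2 itself could not be read in these libraries.

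Among the pregranulosa genes, levels over the 12 Figla samples did not move as a block. Pearson's r of log2 CPM was highest for Rspo1 with Irx3 (0.79), Irx3 with Gata4 (0.77) and Irx3 with Irx5 (0.73), and lowest for Foxl2 with Wnt4 (-0.38). After each group's mean was taken out, these were 0.74, 0.75, 0.70 and -0.16, and the lowest values were those of Nr5a2 with Gata4 (-0.69), Wnt4 (-0.60) and Irx3 (-0.51). Of 16933 genes, those most like Foxl2 were Cic (0.94), Cyp26b1 (0.93) and Scrib (0.93), and those most like Lgr5 were Slc16a4 (0.97), Ets2 (0.95) and Elovl2 (0.95). The 12 points share groups, ages and libraries, so these values describe the samples.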

How the data were processed

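Messenger RNA was sequenced from mouse ovaries in 20 libraries. Per the labels' protocols, the Figla libraries were made with a Nextera kit, which keeps no strand, and the Lhx8 libraries with the QuantSeq 3' FWD kit. Per the submitters' processing notes, the authors used cutadapt, HISAT2 and GRCm38.p5, whose tool versions the sources used here do not give. The deposited values are raw counts per gene, made by featureCounts 1.6.0 (per the file headers) with the GENCODE M12 annotation, ignoring strand and without the options that keep reads over several genes or places.

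Groups follow the library name, with which the titles, source and genotype fields conflict for part of the libraries. Replicate pairs with a chi-square per degree of freedom under 2 over genes of at least 50 counts were summed. edgeR 4.0.16 in R 4.3.3 tested genes kept by filterByExpr (minimum count 10, minimum total 15) with TMM scaling, the quasi-likelihood test and Benjamini-Hochberg adjustment over all genes tested, threshold 0.05. Each knockout was fitted with its own controls, and ages in 1 model of 4 Figla groups. CPM are on TMM-scaled library sizes within a set; levels were not compared between sets. Alternatives were RLE scaling, no filter on low counts, DESeq2 1.42.0, each sample left out, each library kept apart, 1 Figla model, libraries with agreeing labels, and the Lhx8 replicate number as a block. The fit was tested on simulated data.

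The 10 members and the gene lists were chosen with earlier results of these data known. All 157 list genes were found by symbol. Named genes are all members and, in the Wnt, supporting cell and granulosa lists, called genes, at most the 6 with the smallest p per list and comparison; Foxl2os, Fzd5, Axin2 and the Sertoli markers were named after their values were seen. Some genes that the rule covers are not reported here. Likeness used log2 of CPM plus 1 over genes with a mean of at least 1 CPM. Depth sets the precision of low genes, such as Fshr in the Figla set, while Foxl2 and Fshr could not be read in the Lhx8 set.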

Additional observations from a re-analysis of the deposited data

How the results depend on the processing

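No member was called lower in any comparison under any alternative run. Of the 117, 99 and 80 alternative values of single members for Figla loss at E18.5, Figla loss at P0 and Lhx8 loss, 107, 72 and 64 kept direction and side of the threshold. For P0 against E18.5 in knockouts, in controls and for the difference between ages, 82 of 90, 84 of 90 and 130 of 144 did. Causes were not tested.

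Members called higher after Figla loss at P0 numbered 5 with no filter on low counts (4.10% of all genes), 5 by DESeq2 (6.74%), 0 in 1 model of all Figla samples and 0 to 2 with 1 sample left out. After Lhx8 loss they numbered 3 with no filter (3.62%), 3 by DESeq2 (4.94%), 0 with the replicate block and 0 to 1 with 1 sample left out. Without the filter 1 member, Nr5a2, was called higher at P0 in knockouts, against 0.317% of all genes.

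Genes called at E18.5 numbered 229 with no filter, 78 by DESeq2, 34 with each library apart, 53 in 1 model, 1082 with agreeing labels (where the lone control sample is assumed to vary like the others), 18 without both samples numbered 3 and 0 to 89 with 1 left out, against 1. At P0 they numbered 1363 in 1 model, 1835 with agreeing labels and 1423 to 2882 with 1 left out, against 2767. After Lhx8 loss they numbered 2682 with no filter, 931 with the replicate block and 630 to 1490 with 1 left out, against 1582. Between ages they numbered 1252 with no filter, 1616 by DESeq2, 1490 with each library apart and 0 to 556 with 1 left out in controls, against 0. In knockouts they numbered 0 with RLE scaling, 530 with no filter, 309 by DESeq2, 16 with each library apart and 0 to 150 with 1 left out, against 1. For the difference between ages they numbered 63 with no filter and 3 by DESeq2, against 0.

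Whether Lhx8 replicate numbers pair the samples is not known. Same-numbered knockouts and controls had deviations that correlated at -0.20, 0.05 and 0.04, and differently numbered ones at -0.21 to 0.16. With 3 samples per group, whose deviations from the group mean cancel out, these values cannot decide it. Under the block the adjusted p of Irx5 was 0.0829. The Figla numbers follow deposit order, in which control and knockout libraries alternate. No block was fitted there, and whether same-numbered Figla samples form pairs was not tested.

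With agreeing labels the sign turned at E18.5 for Foxl2 (0.68), Lgr5 (-0.27), Irx5 (-0.11), Runx1 (-0.20) and Nr5a2 (-0.16), and at P0 for Foxl2 (-0.11), Rspo1 (-0.23), Irx3 (-0.20) and Irx5 (-0.10), none past the threshold. With each library apart it turned for Runx1 between ages in knockouts (-0.051) and for Wnt4 in the difference (-0.00021).

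Leaving out 1 sample turned uncalled signs. After Figla loss at E18.5 log2 fold changes ran from -0.35 to 0.32 for Foxl2 and -0.25 to 0.37 for Nr5a2. After Figla loss at P0 they ran from -0.026 to 0.14 for Foxl2, -0.14 to 0.12 for Rspo1, -0.066 to 0.48 for Irx3 and -0.11 to 0.37 for Irx5. After Lhx8 loss they ran from -0.017 to 0.066 for Rspo1, -0.053 to 0.31 for Runx1 and -0.031 to 0.14 for Wnt4. Between ages in controls they ran from -0.11 to 0.16 for Gata4, -0.034 to 0.39 for Irx5 and -0.093 to 0.47 for Nr5a2. In knockouts they ran from -0.088 to 0.49 for Irx3, -0.17 to 0.34 for Irx5, -0.17 to 0.078 for Lgr5 and -0.17 to 0.16 for Runx1. For the difference they ran from -0.29 to 0.42 for Foxl2, -0.43 to 0.16 for Irx3, -0.36 to 0.17 for Irx5 and -0.059 to 0.28 for Wnt4.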
